A study of Mus musculus with 13 samples.

Results

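The combined effect of Setd2 loss and Srsf2 mutation on RNA levels was compared with the sum of the effects of each lesion alone, gene by gene, in bulk RNA-seq of mouse bone marrow hematopoietic stem and progenitor cells (HSPCs). The comparison used all 10 bulk libraries among the 13 samples of the series, and the 3 single-cell samples were not analysed here. The 4 groups were the double mutant, with Setd2 knocked out and Srsf2 mutated (n = 3), Srsf2 mutated (n = 3), Setd2 knockout (n = 2) and wild type (n = 2). For the single-cell samples the protocol names an Mx1-Cre driver in wild type mice as in mutants, floxed Setd2, the Srsf2 P95H change on 1 allele, lineage-negative c-Kit-positive cells, and collection 4 weeks after pIpC in a transplant model. None of this is stated for the bulk libraries, nor are strain, sex or age, or whether replicates came from separate mice, so p-values measure only the spread between these libraries.

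SETD2 is the methyltransferase that trimethylates lysine 36 of histone H3 in the bodies of transcribed genes, and this mark is linked to splicing and to the suppression of transcription starts inside genes. SRSF2 is a splicing factor of the serine- and arginine-rich (SR) family, and its proline 95 is a recurrent site of mutation in myelodysplastic syndrome. The title of the series joins both proteins through methylation of the mutant SRSF2 and ties them to inflammatory signaling and myeloid-derived suppressor cells, which are immature neutrophils and monocytes that restrain T cells. If the lesions acted independently, their log effects would add, and the Setd2 effect would have the same size with and without the Srsf2 mutation.

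The departure from additivity was the log2 fold change of double mutant over Srsf2 mutated libraries minus that of Setd2 knockout over wild type libraries. A value of 0 means that the log effects add, and 1 means that the double mutant stood at 2 times the level expected from both lesions. Departures were tested by the edgeR quasi-likelihood test and called at a Benjamini-Hochberg adjusted p under 0.05 over 19289 tested genes. The departure was called in 6160 genes (31.9%), above 0 in 3229 (16.7%) and below 0 in 2931 (15.2%). Of these, 3744 were called with each library left out in turn, and 2702 departed at least 2-fold (1223 above and 1479 below 0). On the plain CPM scale, where levels rather than logs add, 6059 of the called genes (98.4%) departed in the same direction. The split by direction depended on scaling: with upper-quartile in place of TMM scaling 37.6% of 6477 called genes were above 0, against 52.4% with TMM, as the median departure of all genes moved by -0.146.

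The Setd2 effect with the Srsf2 mutation was weakly correlated with that without it. It was called in 6511 genes (33.8%) between double mutant and Srsf2 mutated libraries, and in 7449 genes (38.6%, with 18.7% higher and 19.9% lower) between Setd2 knockout and wild type libraries, and these comparisons share no library. Of these calls 3352 were common, which was 51.5% and 45% of each set, and 2023 of the common genes (60.4%) changed in the same direction. Among the 1329 that changed in opposite directions, 952 were higher with Setd2 loss in the Srsf2 mutated state and lower in the wild type state, and 377 were the other way round. Across genes, which are not independent replicates, the Setd2 effects of both states correlated with a Pearson r of 0.167 and a Spearman rho of 0.167. The Srsf2 effect, called in 10000 genes (51.8%) between double mutant and Setd2 knockout and in 10869 (56.3%) between Srsf2 mutated and wild type libraries, kept its direction in 6228 of 7137 common calls (87.3%), with r = 0.536 and rho = 0.561. The difference between these correlations was not tested.

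**Figure D1:**
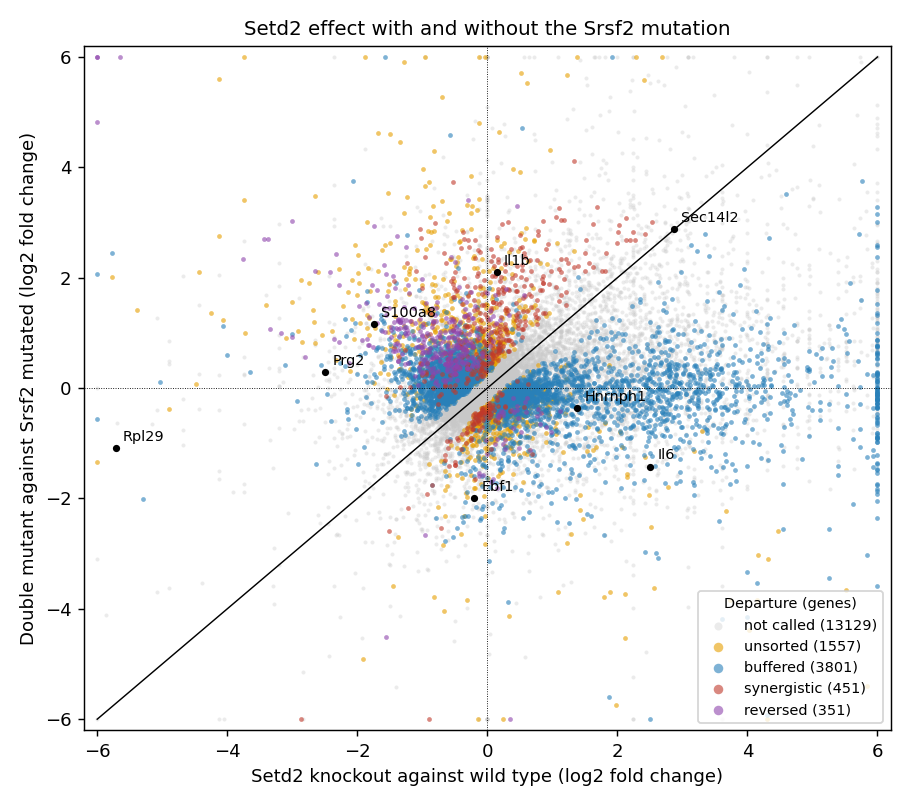
Each point is a tested gene, with the log2 fold change of Setd2 knockout over wild type on the x axis and of double mutant over Srsf2 mutated libraries on the y axis, both held within 6 of 0. Genes on the diagonal are additive, the colors give the sort of called departures, and named genes are black. Buffered genes (3801) were sorted on the sum of both lesions, so they need not lie along the x axis. Among them, the Setd2 effect in the Srsf2 mutated state was -1.42 for Il6, -1.09 for Rpl29 and -0.36 for Hnrnph1.

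Called genes were sorted by the sum of the effects of each lesion against wild type. Where the sum was called, a gene was synergistic if the double mutant lay beyond the sum, buffered if it fell short, and reversed if its own change against wild type was called with the sign opposite to the sum. The sort reads the sum and not each single effect. A class therefore does not show that both lesions moved a gene the same way. Retnlg was synergistic though Setd2 loss lowered it in the wild type state (log2 change -0.80). Nfil3 was too, though its Setd2 effect in the Srsf2 mutated state was not called (0.028, adjusted p = 0.792). The sum was called in 48.3% of all genes. Buffered genes numbered 3801 (61.7% of called genes and 19.7% of all), synergistic genes 451 (7.32% and 2.34%) and reversed genes 351 (5.7% and 1.82%). Unsorted genes, whose sum itself was not called, numbered 1557 (25.3% and 8.07%). The sum and the departure share the same libraries with opposite signs, so noise alone leans toward buffering. Of the buffered genes, 2738 were called against wild type on the side of the sum and 1063 were not called against wild type. Synergy ran mostly upward, with the sum above 0 in 352 of 451 genes, and reversal mostly lifted genes whose sum was below 0 (309 of 351). Median departures in size were 0.86 for synergistic, 0.895 for buffered, 1.47 for reversed and 0.715 for unsorted genes. Synergistic genes numbered 293 with wild type replicate 1 left out, 299 with Setd2 knockout replicate 1 left out and 294 with its replicate 2 left out. Reversed genes numbered 191 with wild type replicate 2 left out.

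A departure that was not called does not show additivity. The 95% interval of the departure lay within 0.5 of 0 in 3100 genes (16.1%), which were counted as additive within that bound, and 829 of them had a Setd2 effect called in the same direction in both states. The departure was called in 7.2% of genes with a highest group mean under 1 CPM, 27.3% at 1 to 10 CPM, 42.6% at 10 to 100 CPM and 52.4% above 100 CPM. Sequencing depth was not varied.

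Total counts ran from 32117387 to 50445434 per library. The spread between libraries, as a coefficient of variation, was 0.0773 in double mutant, 0.194 in Srsf2 mutated, 0.0563 in Setd2 knockout and 0.105 in wild type libraries. Srsf2 mutated replicate 3 stood apart from its group: over genes, its counts gave a chi-square per degree of freedom of 24.8 and 45.2 against replicates 1 and 2, which gave 12.8 against each other, where sampling noise alone gives 1. Without it 7567 departures were called. The same chi-square was 27.4 between the wild type libraries, 7.34 between the Setd2 knockout libraries and 5.41 to 7.71 between double mutant libraries. Wild type stood alone more often than any other group: among called genes, 561 had wild type more than 2-fold outside the range of the other 3 group means while those lay within 2-fold of each other, against 176 for double mutant, 74 for Srsf2 mutated and 97 for Setd2 knockout. Xist, the RNA that silences an X chromosome in female cells, had 6.81, 7.94 and 7.46 CPM in double mutant and 2.54, 1.39 and 1.42 CPM in Srsf2 mutated libraries. For Xist, Setd2 knockout libraries had 0.562 and 0.635 CPM and wild type libraries 499 and 472 CPM, and its departure of 11.72 ± 0.257 SE (adjusted p = 1.42e-13) was the largest among genes named here. The Y-linked genes Ddx3y and Uty had counts in the double mutant and Srsf2 mutated libraries and 0 counts in the Setd2 knockout and wild type libraries. Setd2 knockout libraries thus had little Xist and no counts of Ddx3y or Uty, so these genes do not assign them a sex. Sex and genotype cannot be told apart in these groups, and the departure carries any difference in sex. Departures were called in 29.3% of X-linked genes and 32.1% of autosomal genes.

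Setd2 itself (chr9:110532597-110618633 on GRCm38) had 131, 129.6 and 130.2 CPM in double mutant and 213, 221 and 157 CPM in Srsf2 mutated libraries. For Setd2, Setd2 knockout libraries had 231 and 213 CPM and wild type libraries 158 and 145 CPM. The double mutant libraries lay below every other library, while Setd2 knockout overlapped with Srsf2 mutated and lay above wild type, and the departure was -1.14 ± 0.156 SE, adjusted p = 3.48e-05. A count over the whole gene need not show the loss of some exons, so it checks neither label. Srsf2 had 224, 219 and 227 CPM in double mutant and 227, 222 and 245 CPM in Srsf2 mutated libraries. For Srsf2, Setd2 knockout libraries had 322 and 325 CPM and wild type libraries 282 and 244 CPM, with a departure of -0.35 (adjusted p = 0.0183) that was not called without wild type replicate 2 (-0.25, adjusted p = 0.092). Setd2 knockout stood above the rest, and Srsf2 mutated overlapped with both double mutant and wild type. Among 22 writers, erasers and readers of lysine 36 methylation, 3 departed above and 7 below 0 (45.5%, against 31.9% of all genes), with 11 below 0 without Srsf2 mutated replicate 3, with upper-quartile scaling or with limma voom. None was above 0 with upper-quartile scaling or without wild type replicate 2, either Setd2 knockout library or double mutant replicate 1 or 3. Dnmt3b, a DNA methyltransferase that reads the mark, departed by -0.698 ± 0.109 SE, at 34.8 CPM in double mutant, 52.98 CPM in Srsf2 mutated, 55.7 CPM in Setd2 knockout and 52.3 CPM in wild type.

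Setd2 loss raised all 24 tested late neutrophil genes in the Srsf2 mutated state (17.8% of all genes), and in the wild type state it lowered 22 (19.9% of all genes) and raised 0 of them. All 24 tested members of a list of secondary granule proteins and surface receptors had a called departure above 0, in every leave-one-out fit, against 16.7% of all genes, with a median of 2.64 beside -0.065 over all genes. Their median log2 change against wild type was 1.05 in double mutant, 0.077 in Srsf2 mutated and -1.48 in Setd2 knockout libraries, and Setd2 loss changed them by a median of 1.19 in the Srsf2 mutated state. Of these 12 were reversed, 6 synergistic, 4 buffered and 2 unsorted. The summed level of the list ran from 37110 to 37760 CPM in double mutant, 15130 to 18590 CPM in Srsf2 mutated, 6427 to 7035 CPM in Setd2 knockout and 16760 to 22830 CPM in wild type libraries, so the double mutant stood above, and the Setd2 knockout below, every other library. In bulk RNA, fewer cells of a type and less RNA per cell cannot be told apart. The part of cell makeup in the departures of other genes was not tested.

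S100a8 (chr3:90668978-90670035), a subunit of the calcium-binding alarmin calprotectin, had 5522, 5795 and 5719 CPM in double mutant and 2648, 2039 and 2945 CPM in Srsf2 mutated libraries. For S100a8, Setd2 knockout libraries had 1136 and 1242 CPM and wild type libraries 3589 and 4369 CPM. The groups did not overlap: Setd2 loss raised the gene in the Srsf2 mutated state (log2 change 1.16) and lowered it in the wild type state (-1.74). The double mutant mean of 5678 CPM stood against 760.1 CPM expected if the log effects add, a departure of 2.901 ± 0.170 SE, adjusted p = 4.29e-09. S100a9, the other subunit, followed the same order, with 7752 CPM in double mutant, 3419 CPM in Srsf2 mutated, 1422 CPM in Setd2 knockout and 4614 CPM in wild type and a departure of 2.88 ± 0.177 SE. Il1r2, the decoy receptor that binds interleukin-1 without signaling, had 196, 192 and 203 CPM in double mutant and 32.3, 32.7 and 31.1 CPM in Srsf2 mutated libraries. For Il1r2, Setd2 knockout libraries had 4.73 and 4.66 CPM and wild type libraries 13.4 and 13.1 CPM, and its departure of 4.12 ± 0.112 SE had the smallest adjusted p of the list (1.89e-12). Its sum was not called (log2 -0.22), so it was unsorted, and the double mutant alone stood far above the other groups. Mmp8, the neutrophil collagenase of secondary granules, had 772, 762 and 763 CPM in double mutant and 163, 157 and 156 CPM in Srsf2 mutated libraries. For Mmp8, Setd2 knockout libraries had 16.7 and 15.97 CPM and wild type libraries 26.96 and 23.5 CPM. It was synergistic (departure 2.899 ± 0.104 SE), and Srsf2 mutation alone raised it too (log2 change 2.65).

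The promoters of S100a9 and of 2 synergistic members, Retnlg and Mmp8, are shown because each of them holds the letters of the C/EBP motif, bound by the factors that drive granulocyte genes. The windows cover 250 bases before to 50 after the start of the gene (RefSeq, GRCm38.p6), chr3:90695672-90695971 on the minus strand, chr16:48872358-48872657 on the plus strand and chr9:7558179-7558478 on the plus strand, 5′ to 3′, with the match to TTGCNNAA on either strand in capitals.
S100a9: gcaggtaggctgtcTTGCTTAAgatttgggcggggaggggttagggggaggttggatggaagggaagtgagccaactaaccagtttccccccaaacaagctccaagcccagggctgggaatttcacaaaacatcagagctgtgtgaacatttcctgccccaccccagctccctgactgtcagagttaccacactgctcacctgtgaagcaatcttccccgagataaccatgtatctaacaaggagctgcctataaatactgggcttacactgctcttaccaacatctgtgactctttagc
Retnlg: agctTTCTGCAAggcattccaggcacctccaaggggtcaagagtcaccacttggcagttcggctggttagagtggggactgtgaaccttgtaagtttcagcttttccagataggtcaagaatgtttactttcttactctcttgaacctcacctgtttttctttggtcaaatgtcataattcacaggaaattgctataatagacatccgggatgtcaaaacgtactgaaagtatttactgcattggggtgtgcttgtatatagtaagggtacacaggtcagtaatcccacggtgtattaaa
Mmp8: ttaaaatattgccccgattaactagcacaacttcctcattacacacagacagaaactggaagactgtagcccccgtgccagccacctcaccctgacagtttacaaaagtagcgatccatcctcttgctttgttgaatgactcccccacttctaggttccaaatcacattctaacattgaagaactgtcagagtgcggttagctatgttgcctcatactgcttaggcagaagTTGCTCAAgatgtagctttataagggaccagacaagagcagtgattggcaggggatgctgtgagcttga
The letters stood in the promoters of 7 of 22 late neutrophil genes with a window and of 12.2% of 27025 genes, and those of the PU.1 motif GAGGAAGT in 7 of 22 and 3.69%. A match is a description of the sequence and not a bound site.

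Retnlg (chr16:48872621-48874496), a resistin-like protein of neutrophils, was synergistic. It had 1418, 1440 and 1401 CPM in double mutant and 173, 160.2 and 205 CPM in Srsf2 mutated libraries. For Retnlg, Setd2 knockout libraries had 13.4 and 12.2 CPM and wild type libraries 24.6 and 20.04 CPM. The double mutant mean was 1420 CPM against 103 CPM expected, with a departure of 3.79 ± 0.151 SE, adjusted p = 1.2e-10, and the groups did not overlap. Asprv1, a retroviral-like protease, had 67.3 CPM in double mutant, 5.09 CPM in Srsf2 mutated, 0.684 CPM in Setd2 knockout and 0.988 CPM in wild type (departure 4.26 ± 0.270 SE). Clec4d, a C-type lectin receptor of myeloid cells, had 110.3 CPM in double mutant, 16.7 CPM in Srsf2 mutated, 2.37 CPM in Setd2 knockout and 4.798 CPM in wild type (3.74 ± 0.174 SE). H2-Q10, a class I histocompatibility gene, had 23.2 CPM in double mutant, 4.83 CPM in Srsf2 mutated, 0.288 CPM in Setd2 knockout and 0.682 CPM in wild type (3.49 ± 0.363 SE); class I genes resemble each other, so its share of reads is uncertain. These 4 had the largest upward synergistic departures among named genes of at least 10 CPM called with each library left out, predicted models and antigen receptor segments aside.

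**Figure D2:**
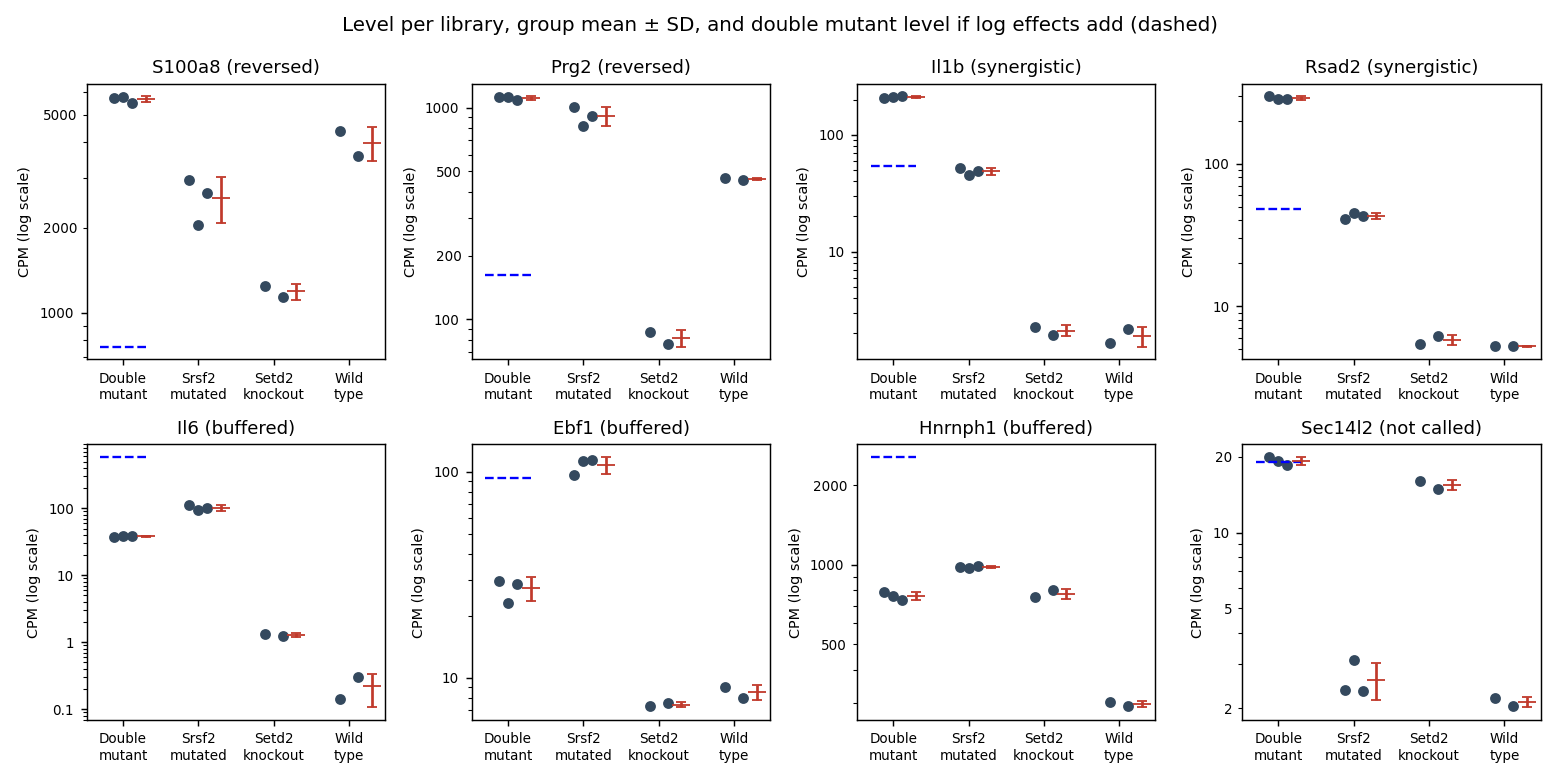
Points are the CPM of each library on a log axis for 8 genes in double mutant, Srsf2 mutated, Setd2 knockout and wild type libraries, with the mean ± SD beside them, and the dashed line is the double mutant level expected if log effects add. S100a8, Prg2, Il1b and Rsad2 stand above the line, Il6, Ebf1 and Hnrnph1 below it, and Sec14l2 on it.

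Eosinophil genes departed above 0 as well. All 12 tested members had a called departure above 0 (median 2.47), against 16.7% of all genes. Their median change against wild type was 1.39 in double mutant, 0.57 in Srsf2 mutated and -2.21 in Setd2 knockout libraries. Prg2, the eosinophil major basic protein, had 1085, 1121 and 1124 CPM in double mutant and 911, 816 and 1010 CPM in Srsf2 mutated libraries. For Prg2, Setd2 knockout libraries had 76.7 and 87.1 CPM and wild type libraries 455 and 465 CPM. Setd2 loss raised it slightly in the Srsf2 mutated state (log2 change 0.28) and lowered it in the wild type state (-2.49), a departure of 2.77 ± 0.121 SE, adjusted p = 2.91e-10. Ear1, an eosinophil ribonuclease, had 173 CPM in double mutant, 81.98 CPM in Srsf2 mutated, 2.903 CPM in Setd2 knockout and 29.4 CPM in wild type and departed by 4.42 ± 0.267 SE; near-identical copies of this family make the split of reads among them uncertain. Epx, another eosinophil marker, was buffered, with 239 CPM in double mutant, 257.5 CPM in Srsf2 mutated, 58.7 CPM in Setd2 knockout and 324 CPM in wild type (2.35 ± 0.144 SE). Its double mutant mean thus lay below those of Srsf2 mutated and wild type. In the list 5 genes were reversed, 3 buffered, 3 unsorted and 1 synergistic. The summed list reached 2238 to 2286 CPM in double mutant, 1532 to 1853 CPM in Srsf2 mutated, 332.2 to 352.8 CPM in Setd2 knockout and 1173 to 1265 CPM in wild type libraries.

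Of 30 tested effectors and receptors of myeloid-derived suppressor cells, 20 had a called departure above 0 and 0 below 0 (median 1.15), with S100a8 and S100a9 among them. The share called was 66.7%, against 31.9% of all genes. Trem1, a receptor that amplifies inflammatory signals, had 228, 215 and 222 CPM in double mutant and 98.4, 104 and 105 CPM in Srsf2 mutated libraries. For Trem1, Setd2 knockout libraries had 14.9 and 15.1 CPM and wild type libraries 43.5 and 42.5 CPM, a departure of 2.63 ± 0.0984 SE, adjusted p = 1.15e-10. It was lowest in Setd2 knockout and highest in double mutant libraries, with no overlap between groups. Arg1 and Nos2, the arginine-consuming enzymes that often define these cells, were low. Arg1 averaged 0.905 CPM in double mutant, 0.675 CPM in Srsf2 mutated, 0.535 CPM in Setd2 knockout and 0.129 CPM in wild type and its departure was not called (-1.602 ± 0.841 SE, adjusted p = 0.165). Nos2 had 0.815, 0.787 and 0.6203 CPM in double mutant, 0.249, 0.504 and 0.3797 CPM in Srsf2 mutated and 0.0432 and 0.0423 CPM in Setd2 knockout libraries and 0 counts in wild type libraries, so no departure is given for it.

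The largest reversals with the sum below 0, by the naming rule, were Scrg1, Ces1d, Cd101 and Ear1. Scrg1 had 13.3 CPM in double mutant, 2.05 CPM in Srsf2 mutated, 0.0752 CPM in Setd2 knockout and 0.835 CPM in wild type, a departure of 6.14 ± 0.512 SE that rests on 7 counts over the Setd2 knockout group. Ces1d, a carboxylesterase, had 36.4, 33.5 and 33.1 CPM in double mutant and 6.71, 4.84 and 8.91 CPM in Srsf2 mutated libraries. For Ces1d, Setd2 knockout libraries had 1.25 and 1.44 CPM and wild type libraries 16.3 and 20.1 CPM, with 34.3 CPM in double mutant against 0.503 CPM expected (departure 6.095 ± 0.288 SE, adjusted p = 5.67e-10). Cd101, a surface protein of mature granulocytes, had 22.5 CPM in double mutant, 2.91 CPM in Srsf2 mutated, 0.695 CPM in Setd2 knockout and 2.33 CPM in wild type (4.68 ± 0.261 SE). Other reversed genes lay in the survival and interleukin-1 lists. Departures were called in 43.8% of BCL2 family genes and 42.1% of interleukin-1 family and inflammasome genes, against 31.9% of all genes. Il1rn, the interleukin-1 receptor antagonist, had 24.9 CPM in double mutant, 6.86 CPM in Srsf2 mutated, 0.854 CPM in Setd2 knockout and 4.15 CPM in wild type (4.14 ± 0.225 SE). Bcl2l1, which encodes the survival protein Bcl-xL, had 83.3, 78.7 and 80.5 CPM in double mutant and 29.98, 31.1 and 36.3 CPM in Srsf2 mutated libraries. For Bcl2l1, Setd2 knockout libraries had 18.4 and 17.5 CPM and wild type libraries 28.98 and 33.6 CPM. It was 1 of 7 called among 16 BCL2 family genes (4 above and 3 below 0, with 1 above without Setd2 knockout replicate 1 and 2 above without Setd2 knockout replicate 2 or wild type replicate 2), and its double mutant libraries stood above every other library (departure 2.12 ± 0.139 SE, adjusted p = 1.4e-08).

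Several inflammatory genes raised by Srsf2 mutation alone exceeded the sum in the double mutant. Il1b (chr2:129364570-129371139), which encodes interleukin-1 beta, had 214, 212 and 207 CPM in double mutant and 49.5, 45.4 and 52.2 CPM in Srsf2 mutated libraries. For Il1b, Setd2 knockout libraries had 1.94 and 2.26 CPM and wild type libraries 2.16 and 1.65 CPM. Setd2 loss raised it in the Srsf2 mutated state (log2 change 2.11), its change against wild type was not called (0.14, adjusted p = 0.505), and the double mutant stood at 211 CPM against 54.2 CPM expected (departure 1.96 ± 0.178 SE, adjusted p = 4.63e-07). Double mutant libraries lay above all others, and Setd2 knockout overlapped with wild type. Of 20 TNF and NF-kB target genes, 13 departed above and 1 below 0 (70% called, against 31.9% of all genes, median 0.69). Plaur, the urokinase receptor, had 387 CPM in double mutant, 167 CPM in Srsf2 mutated, 21.5 CPM in Setd2 knockout and 48.5 CPM in wild type (synergistic, 2.39 ± 0.158 SE). Litaf, an endosomal protein induced by bacterial lipopolysaccharide, had 249.6 CPM in double mutant, 163 CPM in Srsf2 mutated, 36.7 CPM in Setd2 knockout and 78.9 CPM in wild type (unsorted, 1.72 ± 0.0942 SE). The member below 0 was Nlrp3, the inflammasome sensor, named after its values were seen (-0.64 ± 0.134 SE, adjusted p = 0.00161).

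Toll-like receptors, which sense microbial products, and their adaptors departed above 0 in 15 and below 0 in 1 of 21 tested members (median 1.01). The share called was 76.2%, against 31.9% of all genes. Tlr2, the receptor for bacterial lipoproteins, had 170.2, 162 and 167 CPM in double mutant and 73.8, 79.2 and 77.7 CPM in Srsf2 mutated libraries. For Tlr2, Setd2 knockout libraries had 15.1 and 14.03 CPM and wild type libraries 19.3 and 16.9 CPM, with every double mutant library above every other library (departure 1.43 ± 0.113 SE, adjusted p = 1.07e-07). Tlr13, which senses bacterial ribosomal RNA, had 92.4 CPM in double mutant, 22.6 CPM in Srsf2 mutated, 3.52 CPM in Setd2 knockout and 3.93 CPM in wild type (2.19 ± 0.184 SE). The member below 0 was Tlr3, the sensor of double-stranded RNA, named after its values were seen (-1.64 ± 0.491 SE, adjusted p = 0.0181), and it lost its call with wild type replicate 1 (adjusted p = 0.096) or Setd2 knockout replicate 1 (adjusted p = 0.0542) left out. Among 21 chemokine and chemoattractant receptors 10 departed above and 2 below 0 (57.1% called, against 31.9% of all genes). Cxcr2, the receptor that draws neutrophils out of the marrow, had 179, 184 and 180.1 CPM in double mutant and 38.5, 39.0 and 42.1 CPM in Srsf2 mutated libraries. For Cxcr2, Setd2 knockout libraries had 10.05 and 9.71 CPM and wild type libraries 20.3 and 24.8 CPM (3.37 ± 0.128 SE, adjusted p = 1.19e-10). C5ar1, the receptor of complement fragment C5a, had 126 CPM in double mutant, 44.7 CPM in Srsf2 mutated, 7.49 CPM in Setd2 knockout and 29.5 CPM in wild type (3.47 ± 0.148 SE). In both genes Setd2 knockout was the lowest group and double mutant the highest. The 2 receptors below 0 were Ccr1 (-1.02 ± 0.113 SE, named after its values were seen) and Ccr2, a chemokine receptor of monocytes, with 222 CPM in double mutant, 103 CPM in Srsf2 mutated, 401 CPM in Setd2 knockout and 65.1 CPM in wild type (-1.51 ± 0.0980 SE). Ccr2 lies within 20 Mb of Setd2 (chr9:124101950-124113557), and the part of this position in its departure was not tested.

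Of 19 chemokine ligands 5 departed above and 0 below 0, and leaving out wild type replicate 1 or Setd2 knockout replicate 1 gave 3 above 0. The share called was 26.3%, against 31.9% of all genes. Ccl6 had 458 CPM in double mutant, 191 CPM in Srsf2 mutated, 8.902 CPM in Setd2 knockout and 12.9 CPM in wild type (1.79 ± 0.124 SE). The chemokine Cxcl10 had 106 CPM in double mutant, 26.2 CPM in Srsf2 mutated, 3.25 CPM in Setd2 knockout and 2.27 CPM in wild type (1.503 ± 0.223 SE). Fosl2, an AP-1 subunit, was synergistic as well at 345 CPM in double mutant, 207 CPM in Srsf2 mutated, 25.3 CPM in Setd2 knockout and 33.6 CPM in wild type (1.15 ± 0.137 SE). Thbs1, the matrix protein thrombospondin 1 of platelets and myeloid cells, reached 964 CPM in double mutant libraries against 193 CPM expected (2.32 ± 0.135 SE). Of 20 monocyte and macrophage genes 10 departed above and 1 below 0 (55% called, against 31.9% of all genes, median 0.44).

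Interferon-stimulated genes departed above 0 in 26 and below 0 in 2 of 34 members (82.4% called, against 31.9% of all genes, median 0.98). Their median change against wild type was 0.699 in double mutant, -0.26 in Srsf2 mutated and -0.043 in Setd2 knockout libraries, and 14 of the 28 called were unsorted. Rsad2, which encodes the antiviral enzyme viperin, had 282, 285 and 297 CPM in double mutant and 42.9, 45.03 and 41.2 CPM in Srsf2 mutated libraries. For Rsad2, Setd2 knockout libraries had 6.18 and 5.46 CPM and wild type libraries 5.25 and 5.22 CPM. The double mutant libraries stood above the rest at 288 CPM against 47.9 CPM expected (departure 2.59 ± 0.122 SE, adjusted p = 5.57e-10), and the change of Setd2 knockout against wild type was not called (0.15, adjusted p = 0.256). Oas3, an oligoadenylate synthetase that senses viral RNA, had 106, 107 and 107 CPM in double mutant and 22.0, 22.6 and 20.8 CPM in Srsf2 mutated libraries. For Oas3, Setd2 knockout libraries had 21.6 and 21.3 CPM and wild type libraries 30.3 and 30.4 CPM. Each lesion alone put Oas3 below its wild type level and both together put it above, so it was reversed (2.79 ± 0.109 SE, adjusted p = 1.19e-10). The 2 members below 0, named after their values were seen, were Ifi44 (-1.04 ± 0.362 SE) and Gbp3 (-0.41 ± 0.108 SE). Ifi44 lost its call with either wild type library, either Setd2 knockout library, Srsf2 mutated replicate 3 or double mutant replicate 1 or 2 left out (adjusted p from 0.0513 to 0.156).

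Promoters of Rsad2, Oas3 and Cxcl10 are shown because each holds the letters of the interferon response element, a pair of GAAA blocks with 2 bases between, on either strand (match in capitals). The windows, 250 bases before to 50 after the gene start (RefSeq, GRCm38.p6), are chr12:26456403-26456702, chr5:120777610-120777909 and chr5:92348840-92349139, all on the minus strand and given 5′ to 3′.
Rsad2: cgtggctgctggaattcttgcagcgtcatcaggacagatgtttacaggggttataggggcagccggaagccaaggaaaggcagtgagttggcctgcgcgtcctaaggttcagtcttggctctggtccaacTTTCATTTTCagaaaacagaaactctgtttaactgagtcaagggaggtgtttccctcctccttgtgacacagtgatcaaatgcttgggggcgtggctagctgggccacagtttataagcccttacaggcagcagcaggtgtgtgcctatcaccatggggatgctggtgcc
Oas3: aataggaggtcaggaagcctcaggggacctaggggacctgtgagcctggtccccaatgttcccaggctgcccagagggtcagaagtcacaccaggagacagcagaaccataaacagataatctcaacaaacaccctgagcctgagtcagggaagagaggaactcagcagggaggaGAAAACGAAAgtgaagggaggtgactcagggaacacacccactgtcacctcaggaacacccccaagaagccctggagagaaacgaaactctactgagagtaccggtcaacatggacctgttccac
Cxcl10: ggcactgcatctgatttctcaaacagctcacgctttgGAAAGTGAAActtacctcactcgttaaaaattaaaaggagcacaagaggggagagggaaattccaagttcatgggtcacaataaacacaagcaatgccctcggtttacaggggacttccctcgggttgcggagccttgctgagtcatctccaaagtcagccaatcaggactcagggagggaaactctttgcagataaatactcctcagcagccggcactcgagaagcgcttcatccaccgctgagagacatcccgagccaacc
The letters stood in 18 of 26 interferon-stimulated genes with a window and in 3.99% of 27025 genes.

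Of 16 tested globin and heme synthesis genes, 12 departed above and 0 below 0 (75% called, against 31.9% of all genes). Their median departure was 0.88, and 9 were synergistic. Slc25a37, mitoferrin 1, which brings iron into mitochondria for heme, had 742, 738 and 775 CPM in double mutant and 195, 192 and 179 CPM in Srsf2 mutated libraries. For Slc25a37, Setd2 knockout libraries had 143 and 137 CPM and wild type libraries 110.4 and 106 CPM. All 4 groups were apart, with double mutant highest, then Srsf2 mutated, Setd2 knockout and wild type, and the departure was 1.62 ± 0.0941 SE, adjusted p = 4.19e-09. Abcb10, a mitochondrial transporter needed for heme synthesis, was reversed, with 131 CPM in double mutant, 52.7 CPM in Srsf2 mutated, 86.3 CPM in Setd2 knockout and 111 CPM in wild type (1.67 ± 0.100 SE). Globins differed by orders of magnitude between groups, summing to 16740 to 18310 CPM in double mutant, 5096 to 6829 CPM in Srsf2 mutated, 197.7 to 202 CPM in Setd2 knockout and 88.7 to 90.0 CPM in wild type libraries. The departure of Hbb-bs, a beta globin, was small beside this (0.46 ± 0.132 SE, adjusted p = 0.0138). It was not called with upper-quartile scaling (adjusted p = 0.0758) or without Setd2 knockout replicate 2 (adjusted p = 0.0805) or Srsf2 mutated replicate 1 (adjusted p = 0.0597). The departure of Hba-a1, an alpha globin with a near-identical copy, was not called (0.055 ± 0.139 SE, adjusted p = 0.804), nor was that of Alas2, the erythroid enzyme of the first step of heme synthesis (0.24 ± 0.130 SE, adjusted p = 0.175).

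Setd2 loss raised 28 and lowered 0 of 29 erythroid genes in the Srsf2 mutated state, and raised 24 and lowered 1 in the wild type state (17.8% and 18.7% of all genes were raised). Of the same genes 16 departed above and 2 below 0 (62.1% called, against 31.9% of all genes). Their median departure was 0.41, and 8 were additive within 0.5. The count above 0 was 10 without Setd2 knockout replicate 1 or without Setd2 knockout replicate 2. Their median Setd2 effect was 2.26 in the Srsf2 mutated and 1.81 in the wild type state. Epb41, protein 4.1 of the red cell skeleton, was not additive at 589 CPM in double mutant, 216 CPM in Srsf2 mutated, 175 CPM in Setd2 knockout and 177 CPM in wild type (1.46 ± 0.105 SE). Nfe2, a transcription factor of erythroid and platelet precursors, was the member lowered in the wild type state, with 197 CPM in double mutant, 104 CPM in Srsf2 mutated, 145 CPM in Setd2 knockout and 229.8 CPM in wild type (1.58 ± 0.112 SE). Summed erythroid levels were 8296 to 8448 CPM in double mutant, 2085 to 2134 CPM in Srsf2 mutated, 4424 to 4437 CPM in Setd2 knockout and 1984 to 2019 CPM in wild type libraries.

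Genes with a large Setd2 effect that added were Sec14l2 and Paqr9 upward and Emp1, Npl and Smtn downward. Sec14l2 had 18.5, 19.3 and 19.98 CPM in double mutant and 2.34, 3.11 and 2.35 CPM in Srsf2 mutated libraries. For Sec14l2, Setd2 knockout libraries had 14.9 and 16.02 CPM and wild type libraries 2.05 and 2.19 CPM; Setd2 loss raised it by 2.88 in the Srsf2 mutated and 2.87 in the wild type state, with a departure of 0.014 ± 0.214 SE. For Paqr9 the effects were 2.81 and 2.84, at 50.8 CPM in double mutant, 7.25 CPM in Srsf2 mutated, 74.3 CPM in Setd2 knockout and 10.4 CPM in wild type. Emp1, an epithelial membrane protein, had 14.4, 13.9 and 12.1 CPM in double mutant and 38.2, 40.2 and 40.1 CPM in Srsf2 mutated libraries. For Emp1, Setd2 knockout libraries had 1.71 and 1.71 CPM and wild type libraries 5.03 and 5.104 CPM; Setd2 loss lowered it by about the same factor at both levels (-1.55 in the Srsf2 mutated and -1.57 in the wild type state). Npl and Smtn had Setd2 effects of -1.105 and -1.02 in the Srsf2 mutated state and -1.02 and -0.99 in the wild type state.

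Buffering from above, where the sum was above 0 and the double mutant fell short, took in 2052 genes. Il6 (chr5:30013114-30019981), the cytokine interleukin-6, had 38.6, 38.3 and 37.6 CPM in double mutant and 100.02, 92.98 and 114 CPM in Srsf2 mutated libraries. For Il6, Setd2 knockout libraries had 1.23 and 1.33 CPM and wild type libraries 0.306 and 0.141 CPM. Every group was apart from the others: Srsf2 mutated libraries stood highest, and Setd2 loss lowered Il6 in the Srsf2 mutated state (log2 change -1.42) but raised it in the wild type state (2.51). The departure was -3.93 ± 0.293 SE, adjusted p = 6.03e-08, and it rests on 19 counts over the wild type group. Of 18 secreted cytokines outside the interleukin-1 family 3 departed above and 3 below 0 (33.3% called, against 31.9% of all genes). Those above 0 were Ebi3, a subunit of heterodimeric interleukins (1.96 ± 0.187 SE), and, named after their values were seen, Tnf (1.14 ± 0.121 SE) and Tnfsf9 (1.32 ± 0.368 SE), and those below 0 beside Il6 were Il12a (-1.36 ± 0.173 SE) and Csf1 (-1.098 ± 0.125 SE), named likewise. Tnfsf9 lost its call with wild type replicate 1 (adjusted p = 0.0555) or Setd2 knockout replicate 2 (adjusted p = 0.0632) left out.

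Departures below 0 were also called in some feedback regulators of inflammatory signaling. Nfkbiz, an inducible nuclear IkB protein, had 392.1, 369 and 390.00 CPM in double mutant and 539.9, 553 and 497 CPM in Srsf2 mutated libraries. For Nfkbiz, Setd2 knockout libraries had 30.7 and 25.98 CPM and wild type libraries 19.5 and 13.1 CPM, with double mutant below Srsf2 mutated and far above Setd2 knockout (departure -1.26 ± 0.171 SE, adjusted p = 3.22e-05). Nfkbid, of the same family, had 94.9 CPM in double mutant, 123 CPM in Srsf2 mutated, 31.6 CPM in Setd2 knockout and 16.5 CPM in wild type (-1.31 ± 0.108 SE). They were the members below 0 among 18 NF-kB subunits and inhibitors, of which 9 departed above 0, and 4 above 0 without Setd2 knockout replicate 1 or replicate 2 or with upper-quartile scaling. Of 14 MAP kinase feedback genes 5 departed below and 1 above 0. Called shares were 42.9% in this list and 61.1% in the NF-kB subunits and inhibitors, against 31.9% of all genes. The phosphatase Dusp4 had 11.9 CPM in double mutant, 20.5 CPM in Srsf2 mutated, 2.28 CPM in Setd2 knockout and 0.8703 CPM in wild type (-2.17 ± 0.257 SE). Its relative Dusp16 had 33.7 CPM in double mutant, 54.6 CPM in Srsf2 mutated, 6.51 CPM in Setd2 knockout and 5.08 CPM in wild type (-1.05 ± 0.168 SE). Socs2, an inhibitor of cytokine receptor signaling, had 9.15 CPM in double mutant, 25.3 CPM in Srsf2 mutated, 3.84 CPM in Setd2 knockout and 2.53 CPM in wild type (-2.07 ± 0.246 SE). It was the 1 departure below 0 among 16 SOCS and JAK-STAT feedback genes, of which 5 departed above 0 (37.5% called). Fosb, an AP-1 subunit, had 1345 CPM in double mutant, 2528 CPM in Srsf2 mutated, 362 CPM in Setd2 knockout and 128 CPM in wild type (-2.41 ± 0.255 SE). In each of these genes Srsf2 mutated libraries stood highest. Among immediate early AP-1 and EGR factors 40% were called, against 31.9% of all genes. Of 20 immediate early factors 4 departed above and 4 below 0, 8 above without wild type replicate 2 and 8 below without wild type replicate 1. Those above 0 numbered 7 with no filter, and 2 with upper-quartile scaling or without wild type replicate 1, either Setd2 knockout library or Srsf2 mutated replicate 1.

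B lymphoid genes had the highest share of departures below 0 of the 49 lists, in 19 of 24 tested members (1 above 0), against 15.2% of all genes, with a median of -1.21. Their median change against wild type was 1.55 in double mutant, 2.94 in Srsf2 mutated and -0.33 in Setd2 knockout libraries. Ebf1, an early B cell transcription factor, had 28.7, 23.1 and 29.7 CPM in double mutant and 115, 113 and 96.5 CPM in Srsf2 mutated libraries. For Ebf1, Setd2 knockout libraries had 7.56 and 7.26 CPM and wild type libraries 7.998 and 9.06 CPM. Srsf2 mutated libraries stood above all others, with a Setd2 effect of -1.995 in that state and -0.203 in the wild type state (departure -1.79 ± 0.171 SE, adjusted p = 8.22e-07). Pax5, the transcription factor that maintains B cell identity, had 45.8 CPM in double mutant, 147 CPM in Srsf2 mutated, 10.9 CPM in Setd2 knockout and 10.4 CPM in wild type (-1.75 ± 0.193 SE). Dntt, the nucleotide-adding enzyme of antigen receptor joining, was reversed, with 31.8 CPM in double mutant, 201 CPM in Srsf2 mutated, 36.8 CPM in Setd2 knockout and 71.4 CPM in wild type (-1.71 ± 0.131 SE). The member above 0 was Bank1, named after its values were seen (1.55 ± 0.286 SE). The summed list was 547.8 to 557.8 CPM in double mutant, 1722 to 1822 CPM in Srsf2 mutated, 202.9 to 206.7 CPM in Setd2 knockout and 256 to 285.2 CPM in wild type libraries.

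Plasma cell and immunoglobulin constant genes departed in both directions, with 9 of 18 above and 3 below 0 (66.7% called, against 31.9% of all genes). Members below 0 are not named here, so Ighm and Ighg2b show only the side above 0. Ighm, the constant region of IgM, had 1383 CPM in double mutant, 751 CPM in Srsf2 mutated, 281 CPM in Setd2 knockout and 382 CPM in wild type (1.32 ± 0.0951 SE). Ighg2b, an IgG constant region whose close relatives make its read share uncertain, had 82.6 CPM in double mutant, 57.9 CPM in Srsf2 mutated, 1.796 CPM in Setd2 knockout and 9.06 CPM in wild type (2.85 ± 0.163 SE). Mast cell and basophil genes had more departures below 0 than above. Of 17 members 11 departed below and 2 above 0 (76.5% called, against 31.9% of all genes, median -0.92). Cd200r3, an activating receptor of these cells, had 12.6, 12.6 and 12.3 CPM in double mutant and 36.8, 33.6 and 32.6 CPM in Srsf2 mutated libraries. For Cd200r3, Setd2 knockout libraries had 2.096 and 2.45 CPM and wild type libraries 0.988 and 0.8702 CPM; Srsf2 mutated libraries were highest and wild type lowest, without overlap (departure -2.75 ± 0.199 SE, adjusted p = 4.36e-08). The members above 0 were Hdc, the histamine-forming enzyme, which early neutrophils share (1.86 ± 0.0918 SE, 387 CPM in double mutant, 276 CPM in Srsf2 mutated, 97.5 CPM in Setd2 knockout and 252 CPM in wild type), and Srgn, named after its values were seen (0.68 ± 0.132 SE). Of 26 T and NK cell genes 7 departed above and 2 below 0 (34.6% called, against 31.9% of all genes). The members below 0 were Lef1, with 8.24 CPM in double mutant, 35.7 CPM in Srsf2 mutated, 4.32 CPM in Setd2 knockout and 3.72 CPM in wild type (-2.33 ± 0.184 SE), and the cytotoxic protease Gzmb (-1.91 ± 0.184 SE). The defining T cell gene Cd3e stood at 1.43 CPM in double mutant, 0.488 CPM in Srsf2 mutated, 0.0106 CPM in Setd2 knockout and 0.0118 CPM in wild type.

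**Figure D3:**
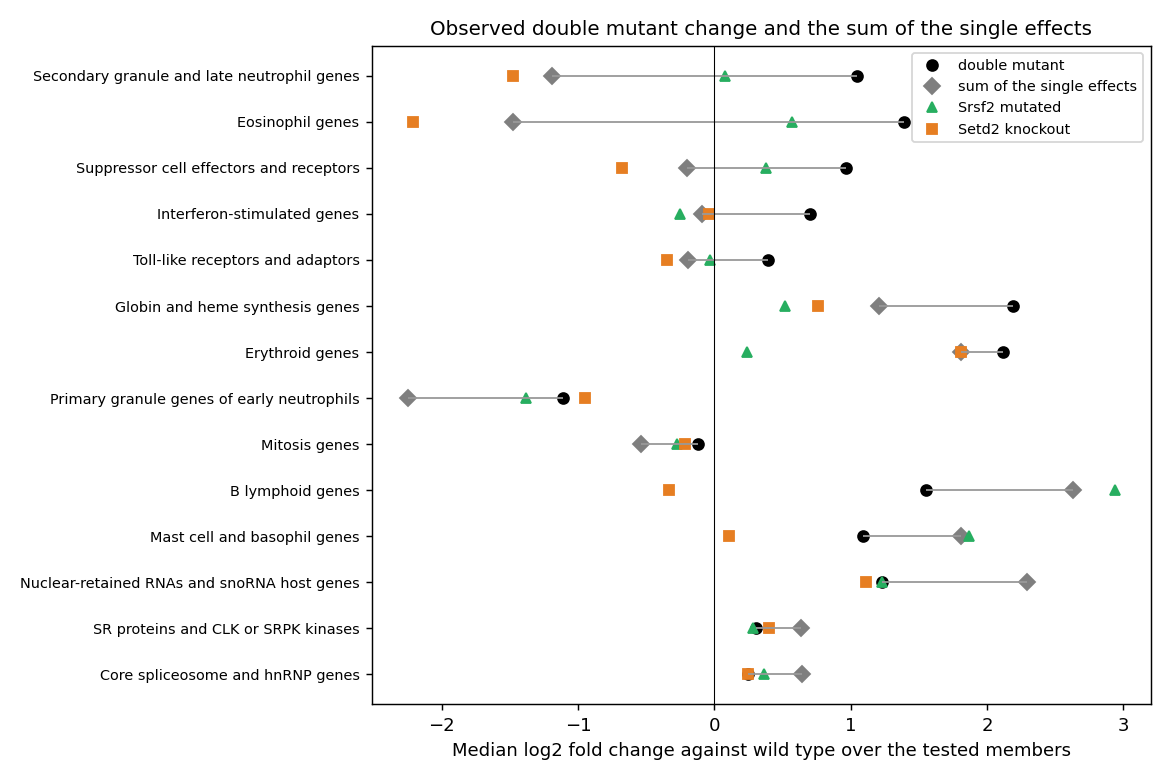
For 14 gene lists, the median log2 fold change against wild type over tested members in double mutant (circle), Srsf2 mutated (triangle) and Setd2 knockout libraries (square), and of the sum of both single effects (diamond), joined to the double mutant by a line. The double mutant lies right of the sum for late neutrophil (2.64 median departure) and eosinophil genes and left of it for B lymphoid and nuclear-retained genes.

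More splicing genes departed below 0 than above. Of 20 SR proteins and their CLK and SRPK kinases 11 departed below and 1 above 0 (median -0.32), and of 37 core spliceosome and hnRNP genes 18 below and 1 above 0 (median -0.34). The shares called were 60% and 51.4%, against 31.9% of all genes. Hnrnph1, an RNA-binding regulator of exon choice, had 736, 760.4 and 792 CPM in double mutant and 991, 974 and 978 CPM in Srsf2 mutated libraries. For Hnrnph1, Setd2 knockout libraries had 799.9 and 754 CPM and wild type libraries 292 and 304 CPM. Wild type stood alone below, each lesion alone raised the gene, and the double mutant of 763 CPM lay level with Setd2 knockout in place of the 2560 CPM expected (departure -1.75 ± 0.0906 SE, adjusted p = 1.51e-09). Clk4, a kinase of SR proteins, had 119.8 CPM in double mutant, 103 CPM in Srsf2 mutated, 89.9 CPM in Setd2 knockout and 32.3 CPM in wild type (-1.27 ± 0.106 SE). Srsf5 had 668, 680.4 and 716 CPM in double mutant and 650.00, 643 and 696 CPM in Srsf2 mutated libraries. For Srsf5, Setd2 knockout libraries had 341 and 341 CPM and wild type libraries 154 and 157 CPM, so that adding Setd2 loss to the Srsf2 mutation moved it by 0.054 (-1.08 ± 0.0925 SE, adjusted p = 2.43e-07). Hnrnpdl had 351 CPM in double mutant, 403 CPM in Srsf2 mutated, 312 CPM in Setd2 knockout and 161 CPM in wild type (-1.15 ± 0.0988 SE). The members above 0 were Srpk2 (0.57 ± 0.140 SE) and Zrsr1 (0.56 ± 0.200 SE), named after their values were seen. Srpk2 was not called without Setd2 knockout replicate 2 (adjusted p = 0.0754), and Zrsr1 was not called without wild type replicate 2, Setd2 knockout replicate 1 or 2, Srsf2 mutated replicate 1 or 2 or double mutant replicate 2 or 3 (adjusted p from 0.0512 to 0.217). Nor was it called with upper-quartile scaling (0.13), no filter (0.0905), a stricter filter (0.058), limma voom (0.0712) or the replicate block (0.052), each an adjusted p. With upper-quartile scaling, which moved the median of all genes by -0.146, 27 core genes were called below 0.

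Nuclear-retained RNAs and host genes of small nucleolar RNAs departed below 0 in 10 of 19 members, all buffered and all called with each library left out, and none above 0 by edgeR or under any alternative (median -1.06). Calls took in 52.6% of the list, against 31.9% of all genes. Neat1, the RNA scaffold of paraspeckles, had 166, 173 and 158 CPM in double mutant and 103, 113 and 104 CPM in Srsf2 mutated libraries. For Neat1, Setd2 knockout libraries had 104 and 115 CPM and wild type libraries 9.67 and 12.6 CPM. Both single lesions raised it to about the same level, and the double mutant reached 166 CPM against 1045 CPM expected (departure -2.66 ± 0.138 SE, adjusted p = 1.51e-09); wild type was far below every other library. Firre, a nuclear RNA of the X chromosome, had 33.1 CPM in double mutant, 42.4 CPM in Srsf2 mutated, 50.6 CPM in Setd2 knockout and 15.5 CPM in wild type (-2.06 ± 0.137 SE). Mir5125, a miRNA gene, had 10.9 CPM in double mutant, 11.3 CPM in Srsf2 mutated, 16.5 CPM in Setd2 knockout and 1.56 CPM in wild type (-3.44 ± 0.220 SE). Mid1, an X-linked ubiquitin ligase, had 4.24 CPM in double mutant, 16.2 CPM in Srsf2 mutated, 4.302 CPM in Setd2 knockout and 0.4704 CPM in wild type (-5.13 ± 0.312 SE). In these genes wild type was the lowest group.

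TEC and antisense gene models had similar median changes against wild type with either lesion and with both. The annotation type TEC marks transcripts that await experimental proof, and its 909 tested models had median log2 changes against wild type of 2.47 in double mutant, 2.25 in Srsf2 mutated and 2.28 in Setd2 knockout libraries, where the sum was 4.58. Departures were called below 0 in 28.7% and above 0 in 0.55% of them. Their summed level was 1142 to 1158 CPM in double mutant, 750.6 to 1155 CPM in Srsf2 mutated, 837.9 to 894.9 CPM in Setd2 knockout and 299.4 to 316.8 CPM in wild type libraries. The 931 antisense models had medians of 1.91, 1.68 and 1.48 in the same groups and a median departure of -1.19, whereas the 14060 protein-coding genes had medians near 0 (-0.085, -0.097 and -0.062) and a median departure of 0.029. Whether the counting used strand is not given in the sources used here, so reads of a gene and its antisense partner cannot be told apart. Of the called genes where wild type stood alone, 137 were TEC, 86 antisense and 187 protein coding. Genes with a count numbered 22760 to 23642 in double mutant, 20753 to 23088 in Srsf2 mutated, 24079 and 24117 in Setd2 knockout and 20545 and 21226 in wild type libraries. Srsf2 mutated replicate 3 had the 20753 genes and the TEC sum of 750.6 CPM. The part of this difference between libraries in the medians was not tested.

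**Figure D4:**
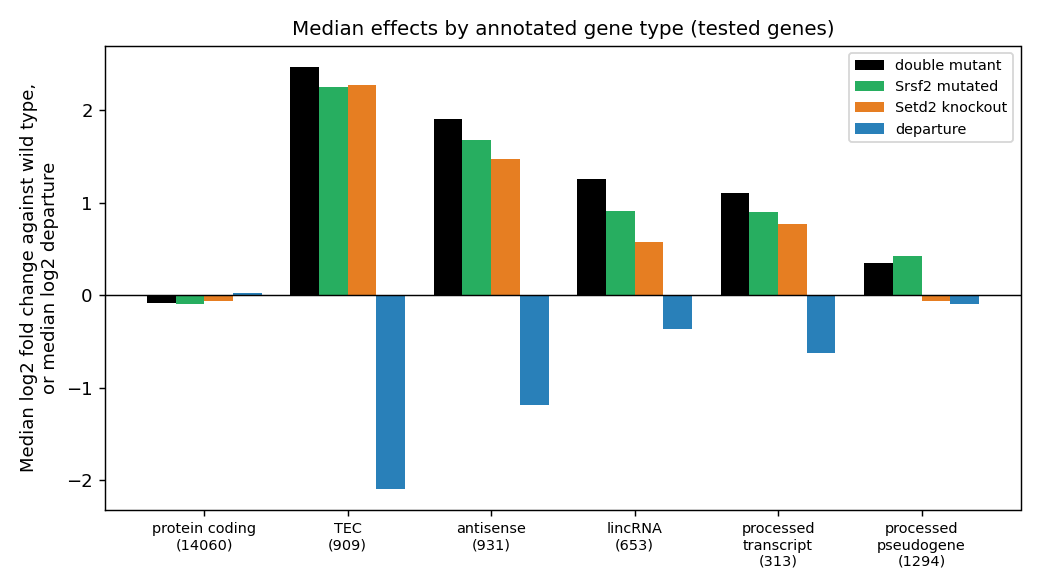
Bars give the median log2 fold change against wild type in double mutant, Srsf2 mutated and Setd2 knockout libraries and the median departure, for 6 gene types of the annotation with the number of tested genes below. TEC models have medians of 2.47, 2.25 and 2.28 in these groups and a median departure of -2.09, while the medians of protein-coding genes lie near 0.

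Buffering from below, with the sum below 0 and the double mutant above it, took in 1749 genes. Rpl29 (chr9:106429454-106431568), a protein of the large ribosomal subunit, had 268, 276 and 283 CPM in double mutant and 585, 507 and 672 CPM in Srsf2 mutated libraries. For Rpl29, Setd2 knockout libraries had 10.1 and 14.6 CPM and wild type libraries 630.2 and 669 CPM. Setd2 knockout libraries stood far below the rest, and the log2 Setd2 effect was -1.09 in the Srsf2 mutated and -5.72 in the wild type state (departure 4.62 ± 0.183 SE, adjusted p = 1.19e-10). The gene lies on the same chromosome as Setd2 and has processed copies elsewhere, so the split of its reads is uncertain. Departures were called in 35.2% of 384 genes within 20 Mb of Setd2 and in 33% of the 684 others of chromosome 9. Of all 88 ribosomal protein genes 17 departed above and 3 below 0 (median 0.29), a count that ran from 3 to 63 above 0 with 1 library left out. It was 3 without Setd2 knockout replicate 1, 7 without Srsf2 mutated replicate 1, 8, 10 and 10 without double mutant replicates 1, 2 and 3, and 63 without Srsf2 mutated replicate 3. Oxidative phosphorylation genes departed with 15 of 74 above and 0 below 0, and above 0 in 4 without Setd2 knockout replicate 1, 7 without wild type replicate 2, 8 without Srsf2 mutated replicate 1, 23 without wild type replicate 1 and 42 without Srsf2 mutated replicate 3. With upper-quartile scaling, no filter and limma voom, ribosomal protein genes above 0 numbered 4, 45 and 52, and oxidative phosphorylation genes 5, 32 and 37. Called shares were 22.7% of ribosomal protein and 20.3% of oxidative phosphorylation genes, against 31.9% of all genes. No direction is read from these broad sets.

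Primary granule genes of early neutrophils (88.2% called, against 31.9% of all genes) departed above 0 in 15 and below 0 in 0 of 17 members. Of these 12 were buffered, and the median departure of the list was 0.68. Their median change against wild type was -1.11 in double mutant, -1.38 in Srsf2 mutated and -0.95 in Setd2 knockout libraries. Mpo, myeloperoxidase, had 3114, 3193 and 3075 CPM in double mutant and 4085, 4164 and 4631 CPM in Srsf2 mutated libraries. For Mpo, Setd2 knockout libraries had 6633 and 7220 CPM and wild type libraries 11896 and 11922 CPM: each lesion lowered it and the double mutant was lowest, at 3127 CPM against 2497 CPM expected (departure 0.32 ± 0.0953 SE, adjusted p = 0.016). That call was lost with upper-quartile scaling (0.18, adjusted p = 0.169) and without Setd2 knockout replicate 1 (0.21, adjusted p = 0.186) or Srsf2 mutated replicate 1 (0.24, adjusted p = 0.0994). Chil3, a chitinase-like protein, had 2156, 2122 and 2124 CPM in double mutant and 1006, 940.1 and 1041 CPM in Srsf2 mutated libraries. For Chil3, Setd2 knockout libraries had 827 and 815 CPM and wild type libraries 1731 and 2206 CPM. In this gene the double mutant lay within the wild type range while each lesion alone stood below it (2.36 ± 0.122 SE, adjusted p = 1.51e-09). Wfdc21, a neutrophil protein, likewise had 175 CPM in double mutant, 77.3 CPM in Srsf2 mutated, 42.0 CPM in Setd2 knockout and 172 CPM in wild type (3.21 ± 0.197 SE). Chit1, a chitinase, stayed low in all mutants at 0.752 CPM in double mutant, 0.612 CPM in Srsf2 mutated, 1.03 CPM in Setd2 knockout and 12.9 CPM in wild type (3.94 ± 0.457 SE). Cebpd, a granulocyte transcription factor, had 106 CPM in double mutant, 87.3 CPM in Srsf2 mutated, 57.1 CPM in Setd2 knockout and 139 CPM in wild type (1.56 ± 0.149 SE). Nfil3, another such factor, had 116 CPM in double mutant, 114 CPM in Srsf2 mutated, 9.85 CPM in Setd2 knockout and 22.4 CPM in wild type (1.21 ± 0.112 SE). Of 19 granulocyte and monocyte factors 10 departed above and 3 below 0 (68.4% called, against 31.9% of all genes).

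Mitosis genes departed above 0 in 16 and below 0 in 0 of 25 members (median 0.43), 12 of them buffered. Of the list 64% were called, against 31.9% of all genes. Aurka, a mitotic kinase, had 81.3, 81.5 and 79.1 CPM in double mutant and 46.7, 50.1 and 57.05 CPM in Srsf2 mutated libraries. For Aurka, Setd2 knockout libraries had 73.6 and 73.2 CPM and wild type libraries 103 and 105 CPM (1.16 ± 0.116 SE, adjusted p = 1.33e-06). Each lesion alone lowered it, and double mutant libraries stood above both but below wild type. Ube2c, which marks mitotic proteins for breakdown, had 205 CPM in double mutant, 127 CPM in Srsf2 mutated, 129 CPM in Setd2 knockout and 197 CPM in wild type (1.299 ± 0.137 SE). Mki67, a marker of cycling cells, was highest in double mutant libraries at 1430 CPM in double mutant, 878 CPM in Srsf2 mutated, 834 CPM in Setd2 knockout and 731 CPM in wild type. Its departure of 0.51 ± 0.158 SE, adjusted p = 0.0205 lost its call with upper-quartile scaling (0.37, adjusted p = 0.0871). It did so too with wild type replicate 2 (adjusted p = 0.0512), Setd2 knockout replicate 1 (0.0604) or Setd2 knockout replicate 2 (0.113) left out. Of 27 DNA replication genes 2 departed above and 3 below 0 (18.5%, against 31.9% of all genes), and 20 were additive within 0.5. Those below 0 numbered 5 without Srsf2 mutated replicate 3 or with limma voom, 1 without wild type replicate 2 and 6 with upper-quartile scaling. Rrm2, a subunit of ribonucleotide reductase, departed by 0.56 ± 0.0906 and Cdc45, a part of the replicative helicase, by 0.52 ± 0.108 SE, and the lists were not tested against each other.

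Synergy downward took in 99 genes. Prss50 had 0.7497, 0.656 and 0.765 CPM in double mutant and 1.54, 0.969 and 2.53 CPM in Srsf2 mutated libraries. For Prss50, Setd2 knockout libraries had 11.7 and 12.6 CPM and wild type libraries 7.15 and 7.97 CPM (-1.88 ± 0.396 SE, adjusted p = 0.0017). Double mutant libraries were the lowest and Setd2 knockout the highest, and the gene lies near Setd2 (chr9:110857967-110864629). Rhobtb3 had 3.06 CPM in double mutant, 6.54 CPM in Srsf2 mutated, 13.6 CPM in Setd2 knockout and 13.04 CPM in wild type (-1.16 ± 0.192 SE). Nefh, a neurofilament, had 2.81 CPM in double mutant, 12.7 CPM in Srsf2 mutated, 7.43 CPM in Setd2 knockout and 17.3 CPM in wild type (-0.96 ± 0.195 SE). Zkscan8, a zinc finger gene, had 6.30 CPM in double mutant, 7.96 CPM in Srsf2 mutated, 34.99 CPM in Setd2 knockout and 23.6 CPM in wild type (-0.91 ± 0.185 SE). Setd2 loss raised Zkscan8 in the wild type state (log2 change 0.57). Reversal from above took in 42 genes. Scn4b, a sodium channel subunit, had 0.522, 1.12 and 0.744 CPM in double mutant and 19.7, 18.0 and 18.4 CPM in Srsf2 mutated libraries. For Scn4b, Setd2 knockout libraries had 0.843 and 0.635 CPM and wild type libraries 1.76 and 2.61 CPM. Srsf2 mutation alone raised it, and adding Setd2 loss put it below wild type (-2.95 ± 0.373 SE, adjusted p = 1.63e-05). Jag2, a Notch ligand, had 3.69 CPM in double mutant, 12.96 CPM in Srsf2 mutated, 5.75 CPM in Setd2 knockout and 5.16 CPM in wild type (-1.96 ± 0.227 SE). Zfp329, a zinc finger gene, had 3.56 CPM in double mutant, 6.11 CPM in Srsf2 mutated, 11.9 CPM in Setd2 knockout and 6.02 CPM in wild type (-1.78 ± 0.286 SE). The long noncoding RNA AU020206 had 69.3 CPM in double mutant, 151 CPM in Srsf2 mutated, 130.2 CPM in Setd2 knockout and 83.01 CPM in wild type (-1.77 ± 0.106 SE).

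Hematopoietic stem cell genes departed below 0 in 8 and above 0 in 3 of 25 members (44% called, against 31.9% of all genes). Gata2, a stem and progenitor transcription factor, had 103, 104 and 99.2 CPM in double mutant and 167, 169 and 166 CPM in Srsf2 mutated libraries. For Gata2, Setd2 knockout libraries had 167 and 172 CPM and wild type libraries 156 and 159 CPM. Double mutant libraries alone stood lower, with the Srsf2 mutated, Setd2 knockout and wild type ranges close together (-0.82 ± 0.0887 SE, adjusted p = 2.98e-06). Hoxa9, another such factor, had 16.2 CPM in double mutant, 21.8 CPM in Srsf2 mutated, 28.2 CPM in Setd2 knockout and 18.5 CPM in wild type (-1.04 ± 0.139 SE). In the other direction Ly6a, the Sca-1 antigen, which interferon also induces, had 26.2 CPM in double mutant, 11.5 CPM in Srsf2 mutated, 3.14 CPM in Setd2 knockout and 8.48 CPM in wild type (2.62 ± 0.258 SE). Txnip, a thioredoxin-binding protein, had 363 CPM in double mutant, 220.3 CPM in Srsf2 mutated, 125 CPM in Setd2 knockout and 170.4 CPM in wild type (1.17 ± 0.0938 SE). Kit, the receptor that marks progenitors, averaged 163 CPM in double mutant, 206 CPM in Srsf2 mutated, 444 CPM in Setd2 knockout and 422 CPM in wild type (synergistic, -0.41 ± 0.104 SE, adjusted p = 0.0063), and Cd34 and Hlf were not called (-0.074 ± 0.116 and 0.035 ± 0.156 SE). Of 28 recurrent driver genes of myelodysplastic syndrome 8 departed below and 3 above 0 (39.3% called, against 31.9% of all genes). Members above 0 are not named here, so Tet2, Npm1 and Ezh2 show only the side below 0. In the list 16 were additive within 0.5. Those below 0 numbered 15 with upper-quartile scaling and 13 with limma voom. Tet2, a DNA demethylase, had 87.2, 85.9 and 83.6 CPM in double mutant and 86.7, 93.4 and 55.03 CPM in Srsf2 mutated libraries. For Tet2, Setd2 knockout libraries had 73.1 and 66.6 CPM and wild type libraries 28.9 and 26.6 CPM, with wild type alone below the rest (-1.21 ± 0.216 SE, adjusted p = 0.000444). Npm1 had 876 CPM in double mutant, 1160 CPM in Srsf2 mutated, 938 CPM in Setd2 knockout and 753 CPM in wild type (-0.72 ± 0.115 SE). Ezh2, the methyltransferase of Polycomb, had 164 CPM in double mutant, 193 CPM in Srsf2 mutated, 189 CPM in Setd2 knockout and 149 CPM in wild type (-0.58 ± 0.107 SE).

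Most other lists departed in both directions. Over all genes 31.9% were called. The share was 33.3% for unfolded protein response, 31.2% for heat shock, 27.3% for endothelial and stromal and 23.8% for cholesterol synthesis genes. It was 22.6% for histone, 21.4% for Hox and 18.2% for class II genes. In the other lists counted in this paragraph it ran from 35.7% (dendritic cell genes) to 60% (genes around Setd2). Counts were as follows for interleukin-1 family and inflammasome genes (6 above and 2 below 0 of 19), SOCS and JAK-STAT feedback genes (5 above and 1 below 0 of 16), Kruppel-like factors (5 above and 1 below 0 of 13), heat shock chaperones (2 above and 3 below 0 of 16), dendritic cell genes (4 above and 1 below 0 of 14) and class II histocompatibility genes (0 above and 2 below 0 of 11). Further counts were those of megakaryocyte genes (6 above and 2 below 0 of 20), Hox genes (0 above and 3 below 0 of 14), Polycomb and other chromatin methylation enzymes (3 above and 7 below 0 of 24), p53 targets (6 above and 5 below 0 of 22), unfolded protein response genes (7 above and 2 below 0 of 27) and cholesterol synthesis genes (5 above and 0 below 0 of 21). Histone genes departed above 0 in 10 and below 0 in 2 of 53, mitochondrially encoded genes in 2 and 5 of 15, sex-linked genes in 4 and 0 of 9, and genes around Setd2 on chromosome 9 in 8 and 7 of 25. Several of these counts turned on 1 library or on scaling, and counts of 2 or fewer members moved by up to 3. SOCS genes above 0 numbered 3 with either Setd2 knockout library left out. Polycomb genes below 0 numbered 3 with wild type replicate 2 or Setd2 knockout replicate 1 left out, 4 without double mutant replicate 3, 12 with upper-quartile scaling and 11 with limma voom, and those above 0 numbered 0 or 1 with either Setd2 knockout library left out. Heat shock chaperones below 0 numbered 5 with upper-quartile scaling and 1 without wild type replicate 2 or double mutant replicate 2, and sex-linked genes above 0 numbered 2 without Setd2 knockout replicate 2. The p53 targets below 0 numbered 2 with wild type replicate 2 or Setd2 knockout replicate 1 left out. Histone genes above 0 ran from 4 to 16 and mitochondrially encoded genes below 0 from 2 to 8 over the libraries left out. Endothelial and stromal genes summed to 100.6 to 103.4 CPM in double mutant, 133.6 to 138 CPM in Srsf2 mutated, 104.2 to 106 CPM in Setd2 knockout and 132.7 to 146.7 CPM in wild type libraries, and 3 of 11 departed. Sesn2, a stress sensor in the p53 and unfolded protein lists, was synergistic at 43.3 CPM in double mutant, 23.6 CPM in Srsf2 mutated, 12.9 CPM in Setd2 knockout and 14.5 CPM in wild type (1.04 ± 0.123 SE). Xbp1, a factor of the same response, was buffered at 254 CPM in double mutant, 216 CPM in Srsf2 mutated, 220.00 CPM in Setd2 knockout and 305 CPM in wild type (0.698 ± 0.0904 SE). Fas, the death receptor, had 10.9 CPM in double mutant, 2.86 CPM in Srsf2 mutated, 1.34 CPM in Setd2 knockout and 1.92 CPM in wild type (2.45 ± 0.265 SE). Stat3, the transducer of interleukin-6 signals, had 249.8 CPM in double mutant, 189 CPM in Srsf2 mutated, 150.4 CPM in Setd2 knockout and 236 CPM in wild type (1.05 ± 0.124 SE). Double mutant and wild type libraries stood above those of each lesion alone.

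**Figure D5:**
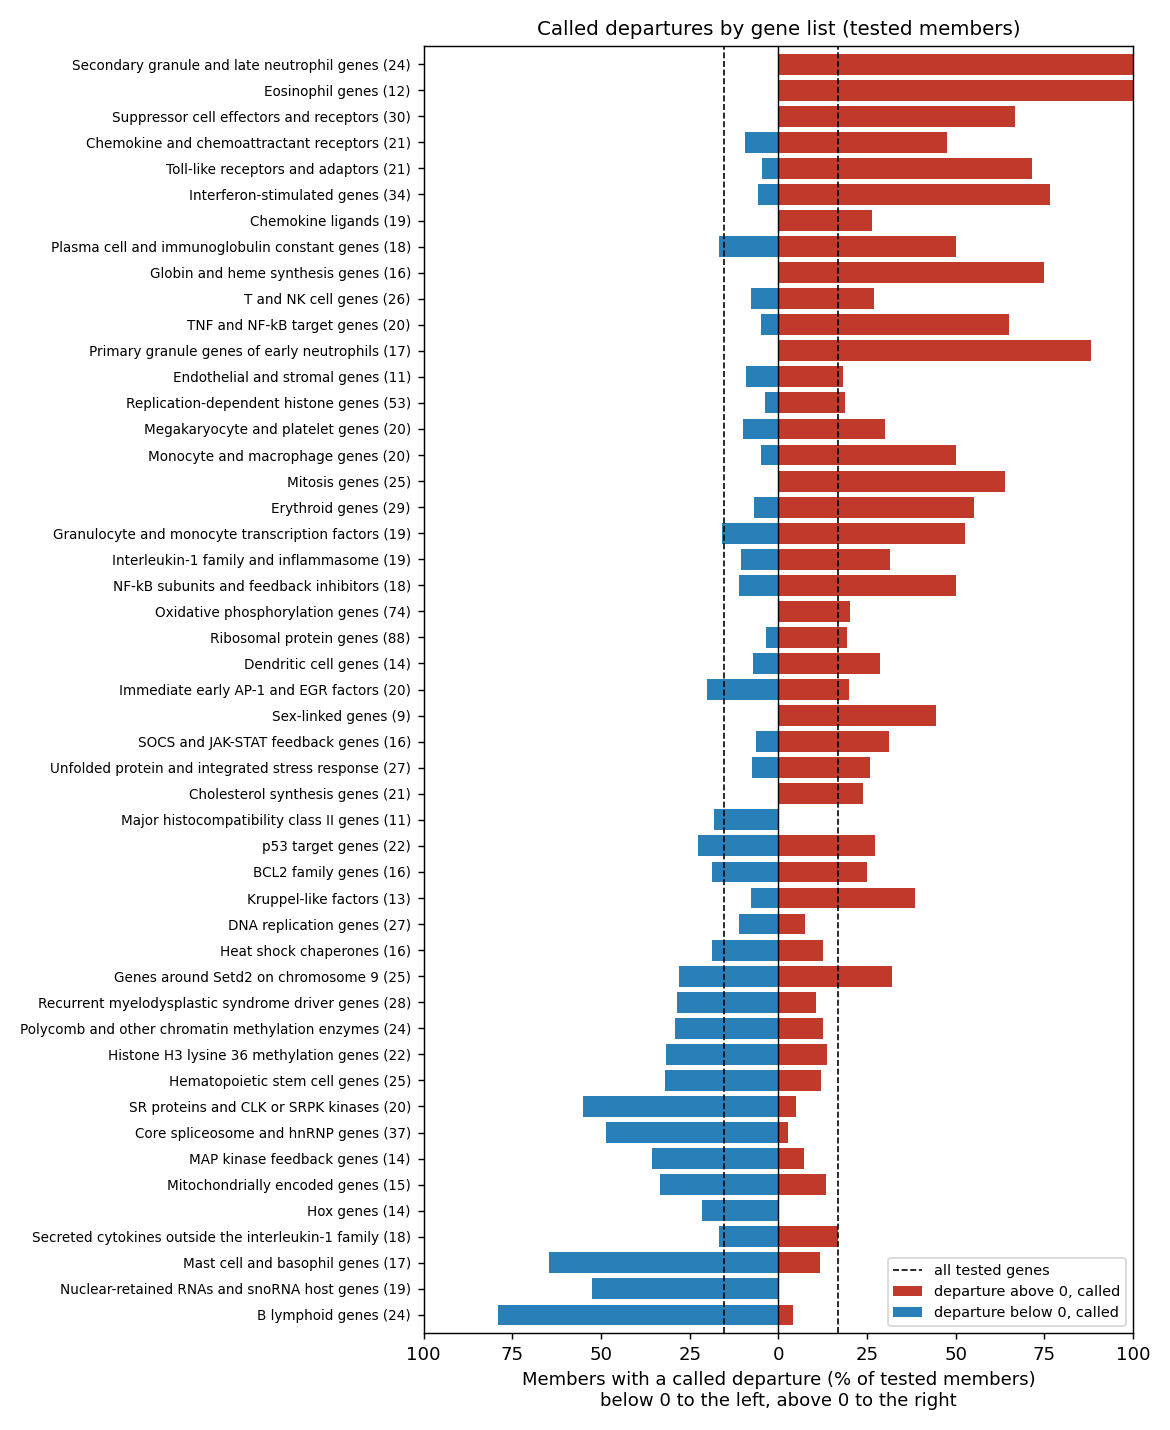
For each of the 49 gene lists, with the number of tested members in brackets, bars give the percentage of members with a called departure above 0 (right) and below 0 (left), and dashed lines give these shares for all tested genes (16.7% and 15.2%). Late neutrophil and eosinophil genes reach 100% to the right, and B lymphoid genes and mast cell genes extend farthest to the left.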

How the data were processed

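Whole-number counts per gene were deposited by the authors in 3 comparison tables, which were joined on the gene identifier, per the file headers. The submitters' processing notes name HISAT2 2.0.5, STAR 2.6.1a, SAMtools 1.7, HTSeq 0.9.1, featureCounts 2.0.1, DESeq2 1.22.2 and Seurat 3.2.0. They name the mouse builds mm10 and GRCm38 and the human builds GRCh38 and hg38. Which step used which is not said, and strand is not given in the sources used here. Groups came from the genotype labels. Total counts ran from 32117387 to 50445434 per library.

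Counts were fitted with the edgeR 4.0.16 quasi-likelihood test in R 4.3.3, with TMM scaling, filterByExpr and 1 coefficient per group, which left 19289 genes; p-values were adjusted by Benjamini-Hochberg over all of them. CPM is the count over the TMM-scaled library size, and an SE is the log2 value over the root of its F. The script was tested on simulated data. Alternatives were other scalings and filters, DESeq2 1.42.0, limma 3.58.1 voom, a replicate term, each library left out, and other sorting rules. The lists are hand-written from textbook knowledge; they, the sorting and the naming rule were chosen with earlier results of these data known.

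Named by rule were 10 fixed genes, per class and direction of the sum the 4 largest departures called with each library left out (at least 10 CPM in the highest group, predicted models and receptor segments left out), per list the 2 called members of smallest adjusted p, and the 3 additive genes with the largest Setd2 effect per direction. 2 of the genes these rules name are not reported here. Defining markers are named as well, and other names are said to be chosen after their values were seen. Positions are those of the GENCODE annotation on GRCm38, and promoters are from RefSeq.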

Additional observations from a re-analysis of the deposited data

Results flagged for a closer look

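The comparison is itself a difference between the Setd2 effects of both Srsf2 states, tested in 1 model, so each called departure was listed for a closer look: 6160 genes in all, and among those named in the text the following log2 departures. Synergistic genes with a departure above 0 were Asprv1 4.26, Ccl6 1.79, Clec4d 3.74, Cxcl10 1.5, Fosl2 1.15, H2-Q10 3.49, Hbb-bs 0.46, Ighm 1.32, Il1b 1.96, Mmp8 2.9, Nfil3 1.21, Plaur 2.39, Retnlg 3.79, Rsad2 2.59, Sesn2 1.04, Slc25a37 1.62, Thbs1 2.32, Tlr13 2.19, Tlr2 1.43, Tnf 1.14, Tnfsf9 1.32 and Zrsr1 0.56. Synergistic genes with a departure below 0 were Kit -0.41, Nefh -0.96, Prss50 -1.88, Rhobtb3 -1.16 and Zkscan8 -0.91. Buffered genes with a departure above 0 were Aurka 1.16, Cdc45 0.52, Cebpd 1.56, Chil3 2.36, Chit1 3.94, Ebi3 1.96, Epx 2.35, Mpo 0.32, Nfe2 1.58, Rpl29 4.62, Rrm2 0.56, Srgn 0.68, Srpk2 0.57, Stat3 1.05, Ube2c 1.3, Wfdc21 3.21, Xbp1 0.7 and Xist 11.72. Buffered genes with a departure below 0 were Ccr1 -1.02, Ccr2 -1.51, Cd200r3 -2.75, Clk4 -1.27, Csf1 -1.1, Dusp16 -1.05, Dusp4 -2.17, Ebf1 -1.79, Ezh2 -0.58, Firre -2.06, Fosb -2.41, Gbp3 -0.41, Gzmb -1.91, Hnrnpdl -1.15, Hnrnph1 -1.75, Hoxa9 -1.04, Il12a -1.36, Il6 -3.93, Lef1 -2.33, Mid1 -5.13, Mir5125 -3.44, Neat1 -2.66, Nfkbid -1.31, Nfkbiz -1.26, Nlrp3 -0.64, Npm1 -0.72, Pax5 -1.75, Setd2 -1.14, Socs2 -2.07, Srsf5 -1.08 and Tet2 -1.21. Reversed genes with a departure above 0 were Abcb10 1.67, Bcl2l1 2.12, C5ar1 3.47, Cd101 4.68, Ces1d 6.1, Ear1 4.42, Hdc 1.86, Il1rn 4.14, Ly6a 2.62, Oas3 2.79, Prg2 2.77, S100a8 2.9, S100a9 2.88 and Scrg1 6.14. Reversed genes with a departure below 0 were AU020206 -1.77, Dntt -1.71, Jag2 -1.96, Scn4b -2.95 and Zfp329 -1.78. Unsorted genes with a departure above 0 were Bank1 1.55, Cxcr2 3.37, Epb41 1.46, Fas 2.45, Ighg2b 2.85, Il1r2 4.12, Litaf 1.72, Mki67 0.51, Trem1 2.63 and Txnip 1.17. Unsorted genes with a departure below 0 were Dnmt3b -0.7, Gata2 -0.82, Ifi44 -1.04, Srsf2 -0.35 and Tlr3 -1.64. The check for a single library far from its group was not made gene by gene, since it needs groups of at least 4 libraries.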

How the results depend on the processing

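The count of 6160 departures was 6156 with median-of-ratios scaling, 6477 with upper-quartile scaling, 6459 with no filter, 5967 with a stricter filter, 6491 with DESeq2 and 7224 with limma voom, and from 4472 to 7567 with 1 library left out. Same-numbered libraries did not deviate together (r from -0.0278 to 0.0398), so the replicate numbers were not taken as pairs; with the replicate block 6188 genes were called, 5936 of them shared. The sorting moved more. By signs alone 983 genes were synergistic and 1695 reversed, and sorted on the Setd2 effect 1251 were buffered and 4236 reversed. Among departures of at least 1, 199 were synergistic, 1702 buffered and 524 unsorted. Genes additive within 0.25 numbered 141 and within 1 numbered 8261. With 1 library left out, synergistic genes ran from 293 to 593, reversed from 191 to 462, buffered from 2709 to 4835, unsorted from 1218 to 1677, additive within 0.5 from 2241 to 3474, departures above 0 from 2254 to 3894 and below 0 from 2218 to 3673. For 120 of the genes named with a departure, values were recomputed over 17 alternatives. Of these values 2004 kept direction and call, and 35 kept the direction and lost the call. Throughout, 111 genes kept both, and the causes were not tested. With 2 libraries in the Setd2 knockout and wild type groups, leaving out either leaves a lone library that is assumed to vary like the other groups.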
